A study of Homo sapiens with 12 samples.

Results

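Genes of endoplasmic reticulum (ER) folding, secretion and the unfolded protein response were examined in OPM-1 cells, a human multiple myeloma cell line. The members are 40 genes given by name, out of 38478 genes in the deposited expression table. They fall into 6 roles: 11 lumenal chaperones, 7 disulfide enzymes, 7 genes of ER-associated degradation, 3 stress sensors, 10 subunits of the translocon and the signal peptidase, and 2 coat subunits of COPII vesicles. The cells received DMSO (the vehicle), lenalidomide (LEN, 0.1 μM), the RUNX inhibitor AI-10-104 (RUNXi, 1 μM) or LEN+RUNXi at the same doses for 48 h, and each condition has 3 samples of poly(A) RNA. LEN causes the degradation of the transcription factors IKZF1 and IKZF3, and the study asked how it acts together with RUNX inhibition. The labels number the replicates without saying what separates them, and the paper calls them biological replicates and independent experiments. The p-values cover the spread between these samples, in a single cell line at 1 time and 1 dose of each compound.

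Plasma cells, and the myeloma cells that derive from them, make and secrete large amounts of antibody, and their ER is built for this load. Proteins enter the ER through the SEC61 translocon, lose their signal peptide to the signal peptidase, and fold with the help of chaperones and disulfide enzymes. Those that fail to fold are sent back to the cytosol for degradation, and those that fold leave in COPII vesicles. When unfolded proteins build up, the sensors ERN1 (IRE1), EIF2AK3 (PERK) and ATF6 start the unfolded protein response. ERN1 splices the mRNA of XBP1, and spliced XBP1 and cleaved ATF6 raise the transcription of chaperone and degradation genes through short elements in their promoters.

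Some of the members carry those promoter elements. The genes were listed for the functions that these elements serve, so a high share among them can come with the choice. The shares are a description. RefSeq lists promoters (from 250 bases before the start to 50 after it, build GRCh38.p14) for 35 of the 40 members. The ER stress response element ERSE, searched on both strands as CCAAT and CCACG with 9 bases of any kind between them, is in promoters of 7 of these 35 members (20%): CALR, CANX, CRELD2, ERO1B, HSP90B1, HSPA5 and PDIA6. Of all 27305 genes with a listed promoter, 25 (0.0916%) hold it. The element ERSE-II, searched as ATTGG and CCACG with 1 base of any kind between them, is in promoters of 3 members (HERPUD1, HYOU1 and SDF2L1) and of 19 genes in all. The element UPRE, searched as TGACGTGG, is in promoters of 4 members (HYOU1, SSR3, SSR4 and TXNDC5) and of 253 genes in all (0.927%), and in HYOU1 it overlaps ERSE-II. For comparison, the letters TGTGGT, the core that RUNX proteins bind, are in promoters of 4 members (CANX, ERO1B, PDIA6 and SEC23B; 11.4%) and of 15.6% of all genes. A match of letters describes the sequence and shows no binding.

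The promoters of 5 genes are printed 5′ to 3′ on the strand of the gene because the results turn on these genes. They are HERPUD1, which was higher with RUNXi, CANX, which was lower with the combination, HSPA5, the main ER chaperone, TXNDC5, whose replicates spread widely, and XBP1, which is not a member. Capitals mark the fixed letters of the element: ERSE-II in HERPUD1, UPRE in TXNDC5 and ERSE in the other 3. Where RefSeq lists several starts, the promoter is that of the start listed first among those that hold an element.
HERPUD1 promoter (chr16:56931892-56932191, plus strand): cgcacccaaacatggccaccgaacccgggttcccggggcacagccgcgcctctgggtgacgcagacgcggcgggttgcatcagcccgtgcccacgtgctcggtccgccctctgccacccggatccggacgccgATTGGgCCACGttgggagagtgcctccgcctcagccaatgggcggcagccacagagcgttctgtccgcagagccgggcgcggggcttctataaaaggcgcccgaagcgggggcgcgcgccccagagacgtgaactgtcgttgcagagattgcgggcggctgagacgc
CANX promoter (chr5:179698679-179698978, plus strand): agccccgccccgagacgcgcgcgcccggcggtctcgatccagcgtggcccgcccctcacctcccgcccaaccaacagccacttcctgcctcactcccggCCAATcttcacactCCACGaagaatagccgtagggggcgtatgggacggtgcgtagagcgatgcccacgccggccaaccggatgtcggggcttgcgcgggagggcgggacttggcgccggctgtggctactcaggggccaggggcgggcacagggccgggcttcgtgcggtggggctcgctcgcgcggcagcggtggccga
HSPA5 promoter (chr9:125241294-125241593, minus strand): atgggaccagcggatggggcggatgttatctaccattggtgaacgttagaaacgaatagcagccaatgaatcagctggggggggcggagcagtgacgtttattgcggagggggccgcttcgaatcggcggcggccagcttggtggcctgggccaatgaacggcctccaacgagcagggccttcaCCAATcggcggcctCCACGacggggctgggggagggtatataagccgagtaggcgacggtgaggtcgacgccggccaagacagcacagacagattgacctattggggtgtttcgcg
TXNDC5 promoter (chr6:7910028-7910327, minus strand): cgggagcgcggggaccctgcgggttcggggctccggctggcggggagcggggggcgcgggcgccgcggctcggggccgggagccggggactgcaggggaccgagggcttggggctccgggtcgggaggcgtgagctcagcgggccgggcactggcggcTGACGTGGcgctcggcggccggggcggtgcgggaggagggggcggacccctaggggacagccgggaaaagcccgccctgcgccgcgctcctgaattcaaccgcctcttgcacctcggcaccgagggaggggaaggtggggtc
XBP1 promoter (chr22:28800520-28800819, minus strand): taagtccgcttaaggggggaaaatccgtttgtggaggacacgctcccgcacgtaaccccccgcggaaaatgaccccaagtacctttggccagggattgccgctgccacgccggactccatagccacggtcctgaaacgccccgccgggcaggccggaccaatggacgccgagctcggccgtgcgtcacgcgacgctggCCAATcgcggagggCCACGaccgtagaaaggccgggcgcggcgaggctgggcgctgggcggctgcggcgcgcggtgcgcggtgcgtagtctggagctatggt
Seen from the start of the transcript, the element begins 117 bases upstream in HERPUD1, 151 in CANX, 66 in HSPA5, 92 in TXNDC5 and 52 in XBP1. TXNDC5 has 2 listed starts and CANX has 4, and the element is in the window of 1 start of TXNDC5 and of 3 starts of CANX.

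Depth, as reads on genes, was 16352548 to 31386210 per sample, and the 3 LEN+RUNXi samples (16352548 to 20419807) were the shallowest group. Markers matched the label: 9 of 9 plasma cell markers were present at 22.9 (SLAMF7) to 523 RPKM (XBP1), and 0 of 4 markers each of B cells, T cells, myeloid cells, epithelial cells and fibroblasts reached a mean of 0.5 RPKM. The summed plasma cell markers were 1610 to 1670 RPKM in RUNXi and 1380 to 1510 RPKM in the other conditions, and XBP1 is among them. RPKM, reads scaled to gene length and to the depth of the sample, allows levels of different genes to be set side by side. In bulk RNA, a change in the share of cells that express a gene and a change in the RNA per cell cannot be told apart.

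The levels of the members spanned a wide range. Together they held 1.154% ± 0.0056 of the reads in DMSO, 1.134% ± 0.0112 in LEN, 1.140% ± 0.0083 in RUNXi and 1.088% ± 0.011 in LEN+RUNXi (mean ± SD, n = 3 each). The 3 LEN+RUNXi samples (1.075% to 1.094%) lay below all 9 others (1.126% to 1.161%). The most abundant members by mean level were CALR (calreticulin, a lectin chaperone) at 592 RPKM, SEC61G (a subunit of the translocon) at 458 RPKM and HSP90B1 (GRP94, the ER HSP90) at 437 RPKM. CALR was 612, 592 and 558 RPKM in DMSO, 601, 627 and 629 in LEN, 556, 558 and 573 in RUNXi, and 597, 596 and 603 in LEN+RUNXi. These 4 groups lie close together and no comparison of CALR passed the main test described below. The lowest 3 were TXNDC5 (2.23 RPKM), ERO1B (0.442 RPKM) and DERL3, which is listed at 0 in every sample. ERO1B, the oxidase that feeds disulfide enzymes, rested on 38 to 78 reads per sample. It was 0.425, 0.316 and 0.570 RPKM in DMSO, 0.419, 0.444 and 0.427 in LEN, 0.487, 0.458 and 0.464 in RUNXi, and 0.429, 0.403 and 0.467 in LEN+RUNXi. These values of ERO1B overlap, their mean is under the minimum of 0.5 RPKM, and 38 members were tested.

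**Figure D1:**
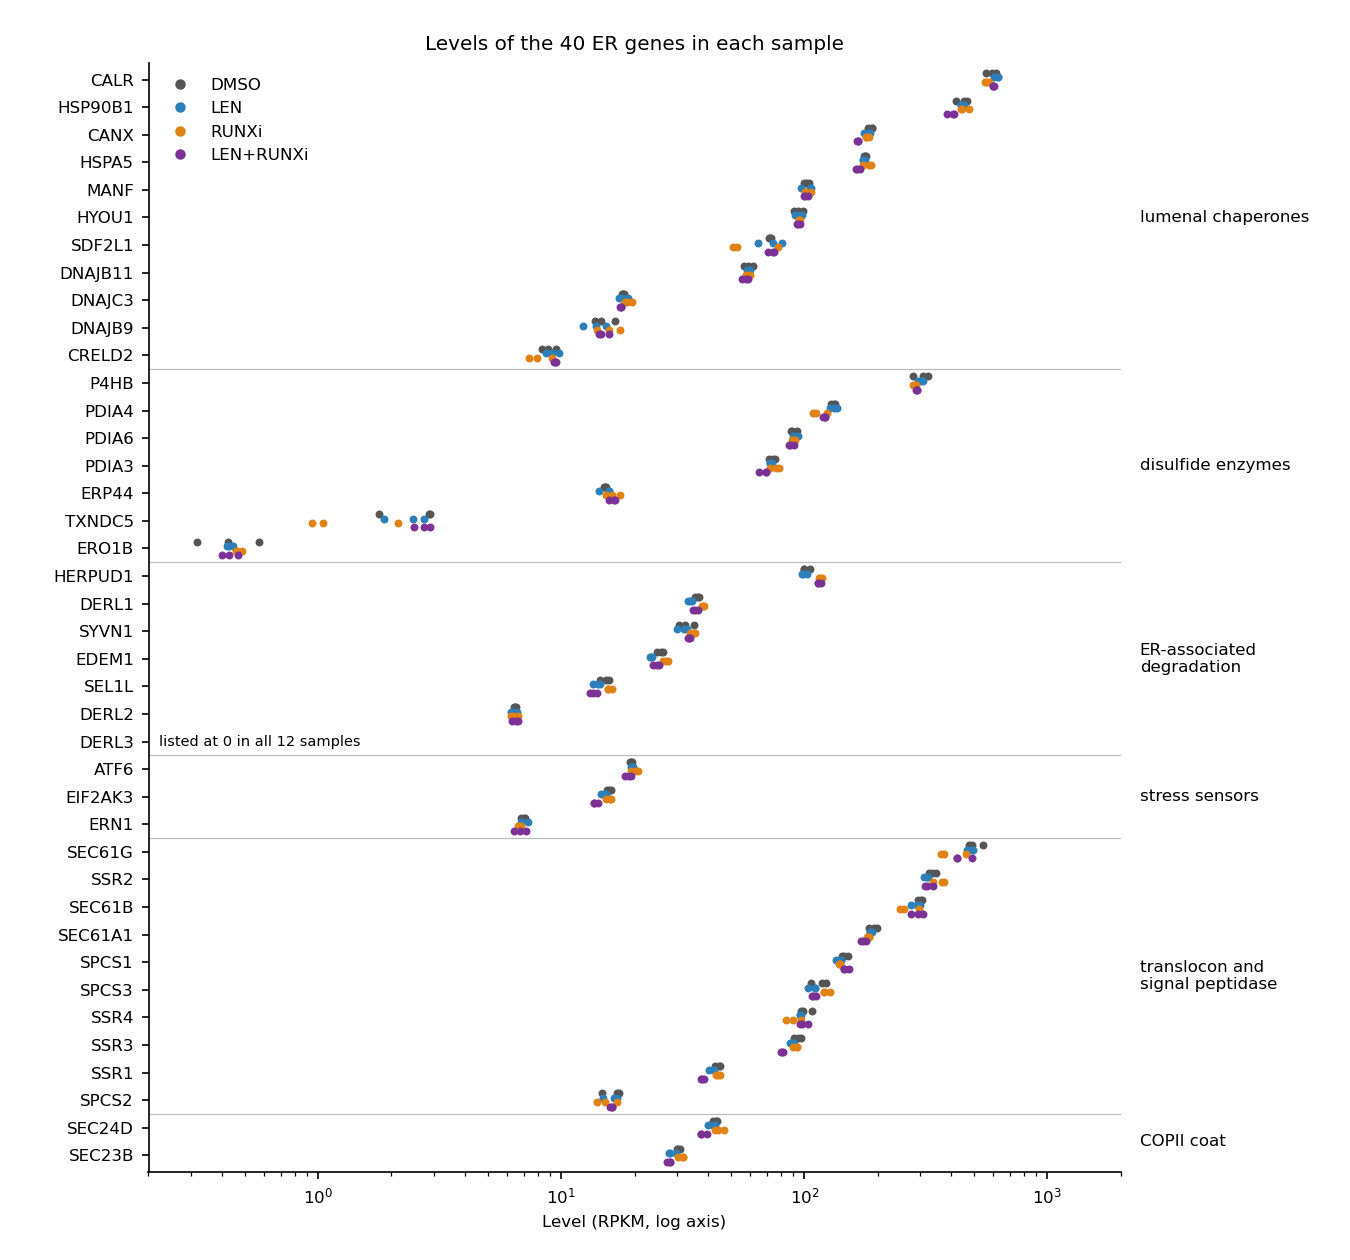
Levels of the 40 ER genes in RPKM on a log axis, grouped by role, with 1 point per sample and 1 colour per condition. Most genes keep their 12 points within a narrow band. TXNDC5 is wider, and DERL3 is listed at 0.

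As a set, the members moved little with LEN or RUNXi alone, and several were slightly lower in LEN+RUNXi. Every comparison was tested with limma on log2(RPKM + 0.1) over 11241 genes, and a member is said to pass, rise or fall at an adjusted p of at most 0.05. This is the main test, and a pass without a named setting refers to it. With LEN, 0 of 38 members rose or fell, beside 0.979% of all genes that rose and 0.151% that fell. By unadjusted p under 0.05, 0 members were higher and 6 lower with LEN, beside 6.57% and 4.15% of all genes. With RUNXi, 1 of 38 members rose (HERPUD1) and 1 fell (PDIA4), 2.63% each, beside 2.09% and 2.46% of all genes, so these shares are near the background. With LEN+RUNXi against DMSO, 1 member rose (HERPUD1; background 5.64%) and 8 fell (21.1%; background 3%). Against LEN, the combination had 1 member higher (HERPUD1; background 2.48%) and 3 lower (7.89%; background 2.14%). Against RUNXi, it had 1 member higher (TXNDC5; background 9.13%) and 14 lower (36.8%; background 5.84%). These comparisons share samples, so the counts are no independent support for each other. Without RUNXi replicate 2, 2 members rose and 6 fell with RUNXi, and 7 rose from RUNXi to LEN+RUNXi. The 1 that fell with RUNXi became 0 without DMSO replicate 1 or 2 or RUNXi replicate 1 or 3, and the 1 higher against RUNXi became 0 without RUNXi replicate 1 or 3 or any LEN+RUNXi replicate. The 8 lower against DMSO became 4 without DMSO replicate 2, LEN+RUNXi replicate 1 or LEN+RUNXi replicate 3 and 5 without DMSO replicate 3. The 3 against LEN became 0 without LEN replicate 1 or 3 or any LEN+RUNXi replicate and 1 without DMSO replicate 2, and the 14 against RUNXi became 4 without RUNXi replicate 1 or LEN+RUNXi replicate 1, 5 without RUNXi replicate 3 and 8 without LEN+RUNXi replicate 2.

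The differences were small. When a log2 fold change of at least 0.32 was also required, 1 of 38 members remained in any comparison, TXNDC5 in LEN+RUNXi against RUNXi, beside 3.16% of all genes higher and 0.471% lower. The shares of all genes past both thresholds were 0.587% higher and 0.0623% lower with LEN, 0.685% and 1.09% with RUNXi, 2.3% and 0.641% with LEN+RUNXi against DMSO, and 0.872% and 0.81% against LEN. The median log2 fold change of the members was -0.030 with LEN (all genes -0.002), 0.004 with RUNXi (0.008), -0.041 with LEN+RUNXi (0.020), -0.034 for the combination against LEN (0.023) and -0.044 against RUNXi (0.018). In LEN+RUNXi against DMSO, 29 of 38 members had a negative value and 9 a positive value. The split was similar with LEN alone, 27 negative and 11 positive, and was 17 negative and 21 positive with RUNXi. The test of whether LEN acted differently with RUNXi, the interaction, called 0 members and 0 of 11241 genes (12 members had an unadjusted p under 0.05, 4 of them positive and 8 negative, beside 9.04% and 5.38% of all genes), and limma with voom weights on reads called 0 members and 3 genes. Without the second RUNXi sample, the interaction called 3 members, TXNDC5, SDF2L1 and SEC61B, beside 3.69% of genes in the positive and 1.11% in the negative direction. That sample was the highest RUNXi sample in each of the 3. Leaving it out lowers their RUNXi mean by construction, so these calls are no independent support for an interaction.

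The same shift shows in the samples. For 9 of 38 members (23.7%), all 3 LEN+RUNXi samples lay below all 9 other samples, beside 2.98% of all genes. These were HSPA5, HSP90B1, CANX, PDIA3, EIF2AK3, SEC61A1, SSR1, SSR3 and SEC24D, from every role but ER-associated degradation. For 0 of 38 members all 3 LEN+RUNXi samples lay above the others, beside 5.2% of all genes. A rescaling of the samples by median ratios moved the LEN+RUNXi values against DMSO of members and of all genes alike, to medians of -0.070 and -0.008. It turned the split of all genes from 634 higher and 337 lower to 464 and 548.

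**Figure D2:**
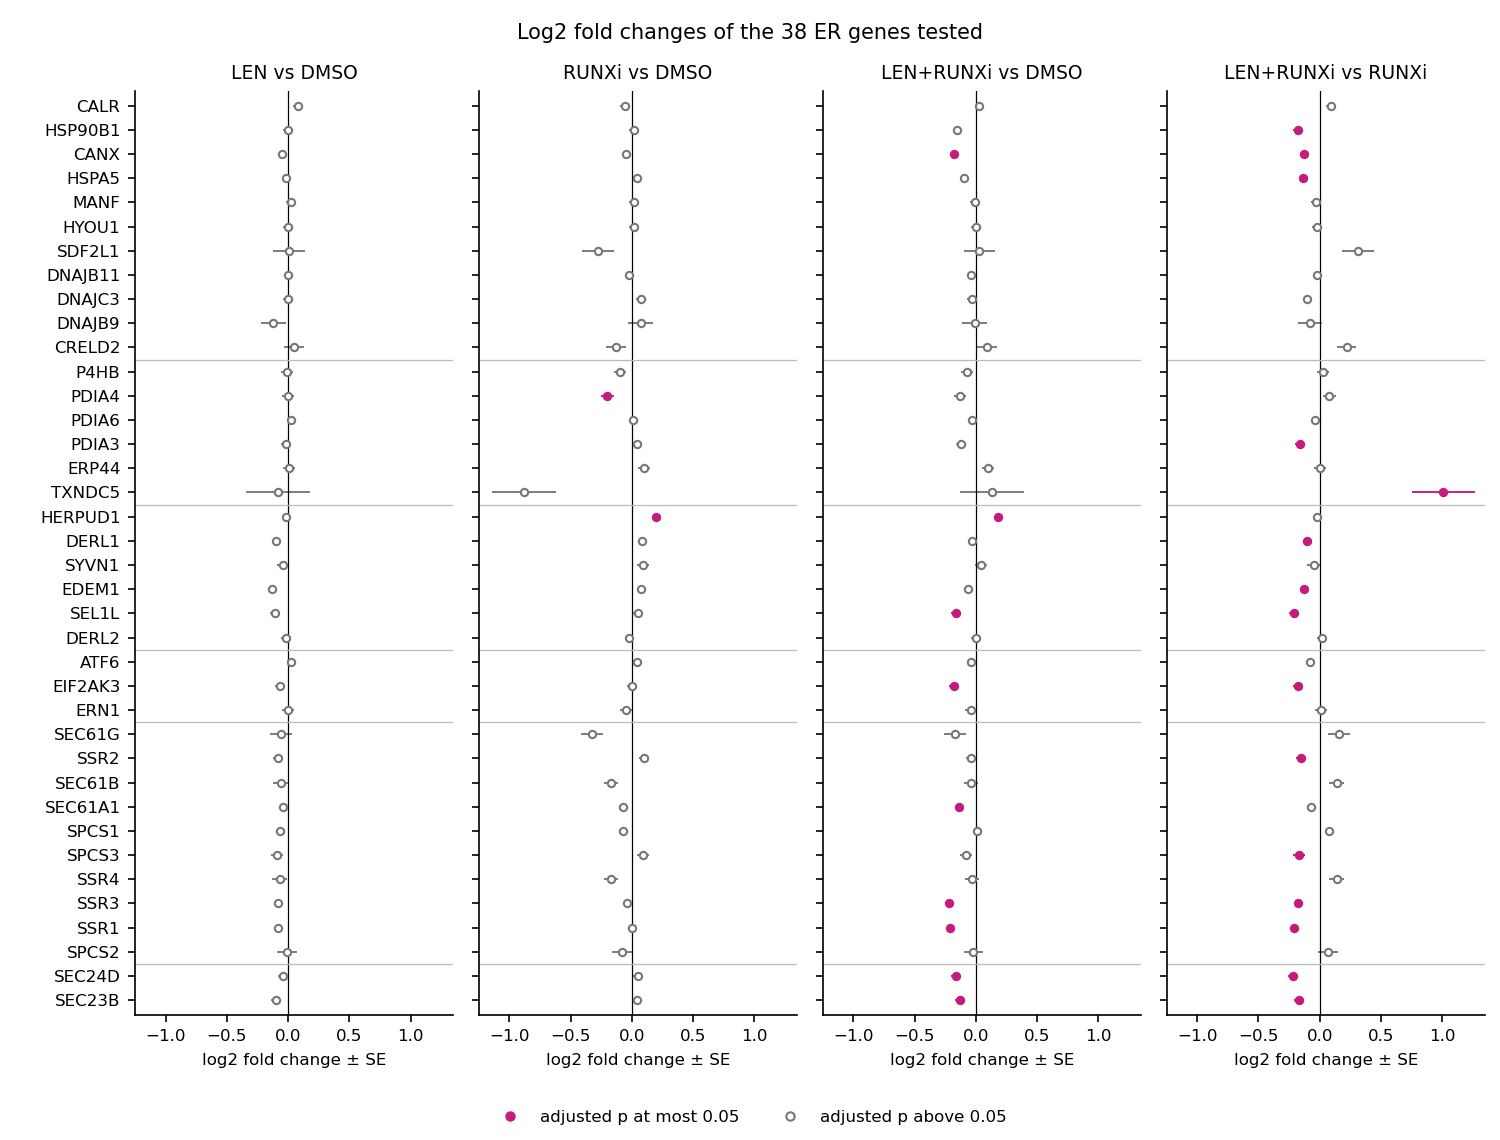
Log2 fold changes of the 38 ER genes tested, with bars for the SE of the limma fit, in 4 comparisons. Filled points have an adjusted p of at most 0.05: none with LEN, HERPUD1 and PDIA4 with RUNXi, 9 with LEN+RUNXi against DMSO and 15 against RUNXi. Most points lie within 0.3 of 0, and TXNDC5, SDF2L1 and SEC61G reach beyond it.

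Among the 11 lumenal chaperones, 0 rose or fell with LEN or with RUNXi, and CANX fell with the combination against DMSO. HSPA5 (BiP), the ER HSP70 and the usual readout of ER stress, was 180, 177 and 176 RPKM in DMSO, 177, 174 and 175 in LEN, 185, 175 and 188 in RUNXi, and 163, 170 and 165 in LEN+RUNXi. The LEN+RUNXi samples lay below the other 9. Against DMSO the log2 fold change of HSPA5 was -0.10 (SE 0.03, adjusted p = 0.091), which missed the threshold, and against RUNXi it was -0.14 (SE 0.03, adjusted p = 0.02). With RUNXi alone it was 0.04 (95% interval -0.03 to 0.11), and with LEN -0.02 (-0.09 to 0.05). So no rise of HSPA5 was detected with either compound.

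CANX, the membrane-bound lectin chaperone, was 183, 190 and 189 RPKM in DMSO, 183, 176 and 186 in LEN, 179, 179 and 184 in RUNXi, and 164, 166 and 166 in LEN+RUNXi. The combination again lay below every other sample. The log2 fold change of CANX was -0.18 against DMSO (SE 0.03, adjusted p = 0.0034), -0.14 against LEN (adjusted p = 0.025) and -0.13 against RUNXi (adjusted p = 0.017). The call against DMSO held with each of the 12 samples left out in turn (adjusted p up to 0.023). The call against LEN was lost without LEN replicate 1 or 3 or any LEN+RUNXi replicate. HSP90B1 was 422, 452 and 467 RPKM in DMSO, 443, 440 and 454 in LEN, 447, 440 and 475 in RUNXi, and 386, 408 and 413 in LEN+RUNXi. It too was lowest with the combination, and it fell against RUNXi by 0.18 on the log2 scale (SE 0.04, adjusted p = 0.024). The calls of HSPA5, HSP90B1 and CANX against RUNXi were lost without RUNXi replicate 1 or 3 or LEN+RUNXi replicate 1, and that of HSP90B1 also without LEN+RUNXi replicate 2.

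The other 8 chaperones passed no comparison in the main test. Of these, HYOU1 (a nucleotide exchange factor of HSPA5), MANF, DNAJB11 and DNAJC3 had log2 fold changes within 0.1 of 0 in the comparisons with DMSO. SDF2L1, a partner of DNAJB11, was 72.0, 71.4 and 73.0 RPKM in DMSO, 64.2, 80.9 and 74.1 in LEN, 50.7, 77.8 and 52.8 in RUNXi, and 75.2, 74.4 and 70.9 in LEN+RUNXi. Its second RUNXi sample stood above DMSO and the other two stood below it. Its log2 fold change with RUNXi was -0.28 (SE 0.13, adjusted p = 0.24), -0.48 without RUNXi replicate 2 (adjusted p = 0.0029) and -0.17 without RUNXi replicate 1 (adjusted p = 0.6). DNAJB9, a co-chaperone that ER stress induces, was 14.6, 13.8 and 16.7 RPKM in DMSO, 13.9, 12.3 and 15.3 in LEN, 15.7, 14 and 17.5 in RUNXi, and 14.3, 14.6 and 15.7 in LEN+RUNXi. These groups of DNAJB9 overlap throughout.

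Among the disulfide enzymes, PDIA4 fell with RUNXi. PDIA4, a protein disulfide isomerase, was 134, 133 and 129 RPKM in DMSO, 128, 136 and 132 in LEN, 109, 124 and 112 in RUNXi, and 119, 122 and 122 in LEN+RUNXi. All samples with RUNXi, alone or combined, lay below all samples without it. The log2 fold change with RUNXi was -0.20 (SE 0.05, adjusted p = 0.03), and it was lost without DMSO replicate 1, 2 or 3 or RUNXi replicate 1 or 3 (adjusted p of up to 0.13). PDIA3, which works with CALR and CANX on glycoproteins, fell in LEN+RUNXi against RUNXi by 0.16 on the log2 scale (SE 0.04, adjusted p = 0.026), from 76.1, 72.3 and 78.8 RPKM to 65.0, 69.3 and 69.6, a call lost without RUNXi replicate 1 or 3 or LEN+RUNXi replicate 1 or 2. PDIA6, P4HB and ERP44, a retention factor for ER enzymes, passed no comparison in the main test.

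In ER-associated degradation, HERPUD1 was the member that rose with RUNXi. HERPUD1 is a membrane protein of the degradation complex and a target of the unfolded protein response. It was 106, 99.5 and 99.9 RPKM in DMSO, 103, 99.0 and 98.2 in LEN, 118, 115 and 116 in RUNXi, and 117, 114 and 114 in LEN+RUNXi. The 6 samples with RUNXi lay above the 6 samples without it. The log2 fold change of HERPUD1 was 0.20 with RUNXi (SE 0.03, adjusted p = 0.0081), 0.18 with LEN+RUNXi against DMSO (adjusted p = 0.008) and 0.20 against LEN (adjusted p = 0.0062). Between LEN+RUNXi and RUNXi it was -0.02 (95% interval -0.09 to 0.06, adjusted p = 0.74), and with LEN alone -0.02. The calls against DMSO held with each of the 12 samples left out in turn (adjusted p up to 0.046), and the call for RUNXi was lost when DMSO and RUNXi alone were fitted.

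In the main test no other gene of this role rose with RUNXi or the combination. Of the 6 tested, HERPUD1 among them, 5 had a positive log2 fold change with RUNXi and 1 a negative one (median 0.074, all genes 0.008). The 3 RUNXi samples of DERL1 (38.0, 38.3 and 38.5 RPKM) lay above those of DMSO (35.4, 36.4 and 36.9). With LEN+RUNXi against DMSO, 2 of the 6 were positive and 4 negative (median -0.014, all genes 0.02). SEL1L, the adaptor of the ubiquitin ligase SYVN1, fell in LEN+RUNXi, at 13.1, 14 and 13.5 RPKM against 14.4, 15.3 and 15.7 in DMSO, 14.4, 13.5 and 14.2 in LEN and 16.1, 15.5 and 15.5 in RUNXi. Its log2 fold change was -0.16 against DMSO (SE 0.04, adjusted p = 0.045), which passed in 3 of the 12 fits that left out a sample (those without DMSO replicate 1, LEN replicate 2 or RUNXi replicate 2), and -0.21 against RUNXi (adjusted p = 0.013), which was lost without RUNXi replicate 1 or LEN+RUNXi replicate 1. EDEM1, which picks out misfolded glycoproteins, was the member with the largest difference with LEN, at 23.7, 23.1 and 23.4 RPKM against 24.8, 26.3 and 25.6 in DMSO. The LEN samples of EDEM1 lay below the DMSO samples, and its log2 fold change was -0.13 (SE 0.03, adjusted p = 0.13). EDEM1 and DERL1, a channel subunit, fell in LEN+RUNXi against RUNXi by 0.13 and 0.10 on the log2 scale (adjusted p = 0.033 and 0.042), and each call was lost without RUNXi replicate 1 or 3 or LEN+RUNXi replicate 1 or 2, and without some others. Corrected for GC content and gene length, EDEM1 and DERL1 fell with LEN (adjusted p = 0.049 each) and not against RUNXi. SYVN1 and DERL2 passed no comparison in the main test, and with the correction SYVN1 passed for LEN+RUNXi against RUNXi.

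Of the 3 stress sensors, EIF2AK3 fell with the combination, and ERN1 and ATF6 passed no comparison in the main test. EIF2AK3 (PERK), the kinase that slows translation under ER stress, was 15.4, 16.0 and 15.7 RPKM in DMSO, 14.5, 15.1 and 15.3 in LEN, 16.0, 15.3 and 15.8 in RUNXi, and 13.6, 14.2 and 13.6 in LEN+RUNXi. The 3 LEN+RUNXi samples lay below the other 9. Its log2 fold change was -0.18 against DMSO (SE 0.04, adjusted p = 0.009) and -0.18 against RUNXi (adjusted p = 0.009), and the call against DMSO held with each of the 12 samples left out in turn (adjusted p up to 0.048). The call against RUNXi also held with each sample left out but was lost with the correction for GC content and gene length. ERN1 stayed between 6.39 and 7.27 RPKM and ATF6 between 18.3 and 20.6 RPKM in the 12 samples.

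XBP1, the target of ERN1 and a factor plasma cells need, is not a member but is on the list of other ER genes. It was 512, 516 and 500 RPKM in DMSO, 444, 459 and 465 in LEN, 649, 594 and 654 in RUNXi, and 487, 508 and 490 in LEN+RUNXi. RUNXi samples were the highest, LEN samples the lowest, and DMSO and LEN+RUNXi overlapped between them. With RUNXi the log2 fold change of XBP1 was 0.31 (SE 0.04, adjusted p = 0.001), and with LEN it was -0.16 (SE 0.04, adjusted p = 0.097), which missed the threshold although the 3 LEN samples lay below the 3 DMSO samples. From RUNXi to LEN+RUNXi it fell by 0.35 on the log2 scale (SE 0.04, adjusted p = 0.00061). The interaction, -0.19 (SE 0.06, adjusted p = 0.28), did not pass (without RUNXi replicate 2 it was -0.24, adjusted p = 0.019). Replicate 2 was the lowest RUNXi sample of XBP1, so leaving it out raises the RUNXi mean by construction. Against DMSO the combination differed by -0.04 (95% interval -0.13 to 0.05). The calls for RUNXi against DMSO and for the combination against RUNXi held in every setting tried. Values per gene sum all transcripts, so spliced and unspliced XBP1 mRNA cannot be told apart here.

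In the translocon and its partners, the subunits of the translocon-associated protein complex (SSR1 to SSR4) and of SEC61 did not move together. SSR1 was 42.9, 44.5 and 44.9 RPKM in DMSO, 42.4, 40.4 and 42.0 in LEN, 44.8, 44.3 and 43.4 in RUNXi, and 38.0, 38.5 and 37.7 in LEN+RUNXi. SSR3 was 90.8, 94.6 and 97.2 RPKM in DMSO, 90.4, 87.5 and 89.3 in LEN, 93.1, 89.5 and 93.0 in RUNXi, and 79.8, 81.9 and 80.7 in LEN+RUNXi. In both genes the combination lay below all 9 other samples. SSR1 fell by 0.21 and SSR3 by 0.22 on the log2 scale against DMSO (SE 0.03 each, adjusted p = 0.0019 and 0.0018), and both calls held with each of the 12 samples left out in turn (adjusted p up to 0.014). Against LEN the log2 fold changes were -0.13 for SSR1 and -0.14 for SSR3 (adjusted p = 0.039 and 0.03), and both calls were lost without LEN replicate 1 or 3, DMSO replicate 2 or any LEN+RUNXi replicate, and that of SSR1 also without RUNXi replicate 1 or 3.

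Other subunits of the same complexes differed from SSR1 and SSR3. SSR2 fell in LEN+RUNXi against RUNXi by 0.15 on the log2 scale (adjusted p = 0.045) but overlapped with DMSO. SSR4 passed no comparison in the main test. SEC61A1, the pore of the translocon, fell in LEN+RUNXi against DMSO by 0.14 on the log2 scale (SE 0.03, adjusted p = 0.022), from 199, 194 and 185 RPKM to 174, 179 and 171, a call lost without DMSO replicate 1 or 2 or LEN+RUNXi replicate 1 or 3. SEC61B and SEC61G, the small subunits, were lowest in the RUNXi samples 1 and 3. SEC61G was 474, 488 and 546 RPKM in DMSO, 490, 493 and 465 in LEN, 364, 464 and 377 in RUNXi, and 426, 424 and 491 in LEN+RUNXi. Its log2 fold change with RUNXi was -0.33 (SE 0.09, adjusted p = 0.058), which missed the threshold, and -0.44 (adjusted p = 0.0034) without RUNXi replicate 2. The signal peptidase subunits SPCS1 and SPCS2 passed no test, and SPCS3 fell in LEN+RUNXi against RUNXi by 0.17 on the log2 scale (adjusted p = 0.044). The calls of SSR2 and SPCS3 passed in 4 and 3 of the 12 fits that left out a sample and were lost without RUNXi replicate 1 or 3 or LEN+RUNXi replicate 1 or 2. That of SPCS3 was also lost with the correction for GC content and gene length.

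Both COPII members fell with the combination. SEC24D, which selects cargo for the vesicle, was 43.5, 43.3 and 41.9 RPKM in DMSO, 42.9, 40.3 and 42.2 in LEN, 46.6, 42.8 and 44.3 in RUNXi, and 37.7, 39.8 and 37.4 in LEN+RUNXi. SEC23B, its partner in the inner coat, was 30.8, 30.2 and 30.0 RPKM in DMSO, 27.9, 27.7 and 29.5 in LEN, 31.6, 30.1 and 31.8 in RUNXi, and 27.1, 28.0 and 28.1 in LEN+RUNXi. The LEN+RUNXi samples of SEC24D lay below the other 9, and those of SEC23B overlapped with LEN. Against DMSO the log2 fold changes were -0.16 for SEC24D and -0.13 for SEC23B (SE 0.04 each, adjusted p = 0.03 and 0.044), and both were lost without DMSO replicate 1, 2 or 3 or LEN+RUNXi replicate 1 or 3. That of SEC23B was also lost without LEN replicate 1, RUNXi replicate 1 or 3 or LEN+RUNXi replicate 2, and passed in 3 of the 12 fits. Against RUNXi they were -0.22 and -0.17 (adjusted p = 0.0082 and 0.013), and the call of SEC23B was lost without RUNXi replicate 1 or 3 or LEN+RUNXi replicate 1.

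**Figure D3:**
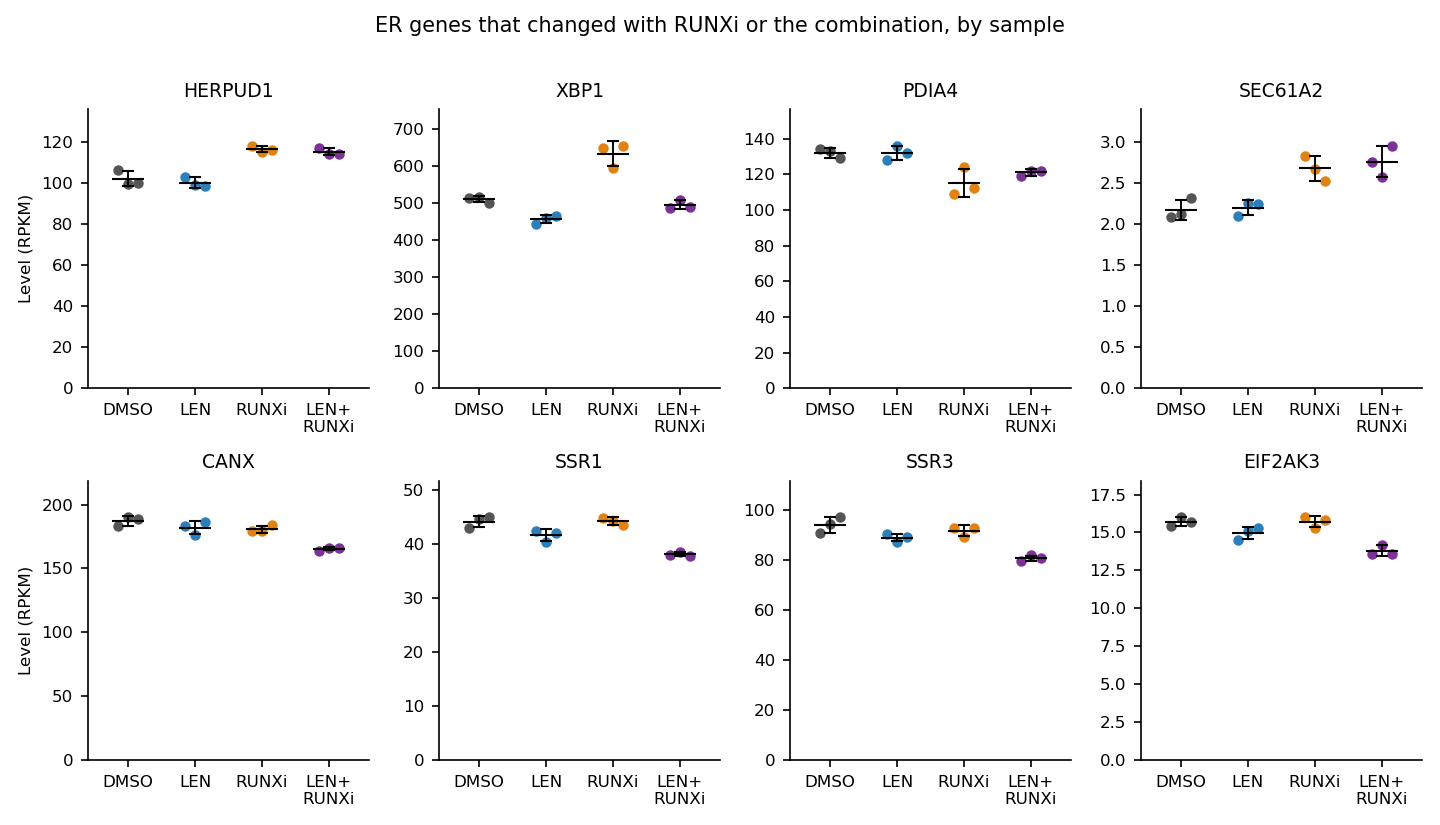
Levels in RPKM of 6 members, XBP1 and SEC61A2 in each sample, with the mean and SD of 3 samples in black. HERPUD1 and SEC61A2 are higher in the 6 samples with RUNXi, PDIA4 is lower in them, XBP1 is highest with RUNXi alone, and CANX, SSR1, SSR3 and EIF2AK3 are lowest with LEN+RUNXi.

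TXNDC5, a disulfide enzyme that plasma cells are known to express, was the member with the widest spread in DMSO, LEN and RUNXi, and its spread over the RUNXi samples was known when the genes were chosen. In LEN+RUNXi, SEC61G was wider (SD of log2 values 0.119). TXNDC5 was 2.89, 2.86 and 1.77 RPKM in DMSO, 2.46, 1.86 and 2.71 in LEN, 0.942, 2.12 and 1.05 in RUNXi, and 2.71, 2.87 and 2.48 in LEN+RUNXi. In reads, the RUNXi samples held 75, 219 and 85. The second RUNXi sample thus lay within the range of the DMSO and LEN samples and the other two below all samples of the series. The SD of its log2 values was 0.594 in RUNXi, 0.385 in DMSO, 0.271 in LEN and 0.102 in LEN+RUNXi, beside medians over all genes of 0.074, 0.069, 0.066 and 0.066. Among the 1459 genes within 1.5-fold of its mean level, the median SD in RUNXi was 0.1 and TXNDC5 was the 37th widest. The SD in RUNXi was 0.101 without replicate 2, and 0.672 and 0.773 without replicates 1 and 3.

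This spread limits what the comparisons show for TXNDC5. With RUNXi its log2 fold change was -0.88 (SE 0.26, adjusted p = 0.082), which missed the threshold in the main test and passed with voom weights on reads (adjusted p = 0.0086). Without RUNXi replicate 2 it was -1.22 (SE 0.20, adjusted p = 0.0039). From RUNXi to LEN+RUNXi it was 1.01 (SE 0.26, adjusted p = 0.028), the difference that passed both thresholds. That call was lost without RUNXi replicate 1 (adjusted p = 0.12), without RUNXi replicate 3 (adjusted p = 0.11) and without any LEN+RUNXi replicate. Against DMSO the combination differed by 0.13 (95% interval -0.45 to 0.70), and neither a rise nor a fall was detected.

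The annotation around TXNDC5 (chr6:7881517-7910788, minus strand, GRCh38) overlaps another gene. Of its exon bases in GENCODE 44, 60.95% are shared on the same strand with the read-through gene BLOC1S5-TXNDC5, which is listed at 0 in every sample. BLOC1S5 held 0 to 3 reads per sample. The file header names featureCounts for the gene lengths, and how it treated reads on shared bases is not given in the sources used here, so the level of TXNDC5 is uncertain, and the part of the overlap in its level and spread was not tested.

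The 5 genes whose log2 values followed TXNDC5 most closely over the 12 samples were RPL7 (Pearson r = 0.971), LUC7L2 (0.958), TAF10 (0.956), H3F3C (0.953) and PET100 (0.935), given as a description over 12 samples of 4 conditions. RPL7 was 8.23, 20.7 and 7.66 RPKM in RUNXi and between 18.3 and 25.9 RPKM in the other 9 samples. These genes were picked for following TXNDC5, so the high second RUNXi sample they share with it comes with the choice. Among the members, SSR4 (0.778), SDF2L1 (0.776) and SEC61B (0.769) followed TXNDC5 most closely. RUNXi replicate 2 exceeded the mean of the other two RUNXi samples by at least 0.1 (log2) in 8 of 38 members (21.1%), TXNDC5, SDF2L1, SEC61G, CRELD2, SPCS2, SEC61B, PDIA4 and SSR4, and in 24.9% of all genes. It lay below that mean by at least 0.1 in 4 members (10.5%), DNAJB9, SSR2, ERP44 and PDIA3, and in 22.8% of all genes.

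**Figure D4:**
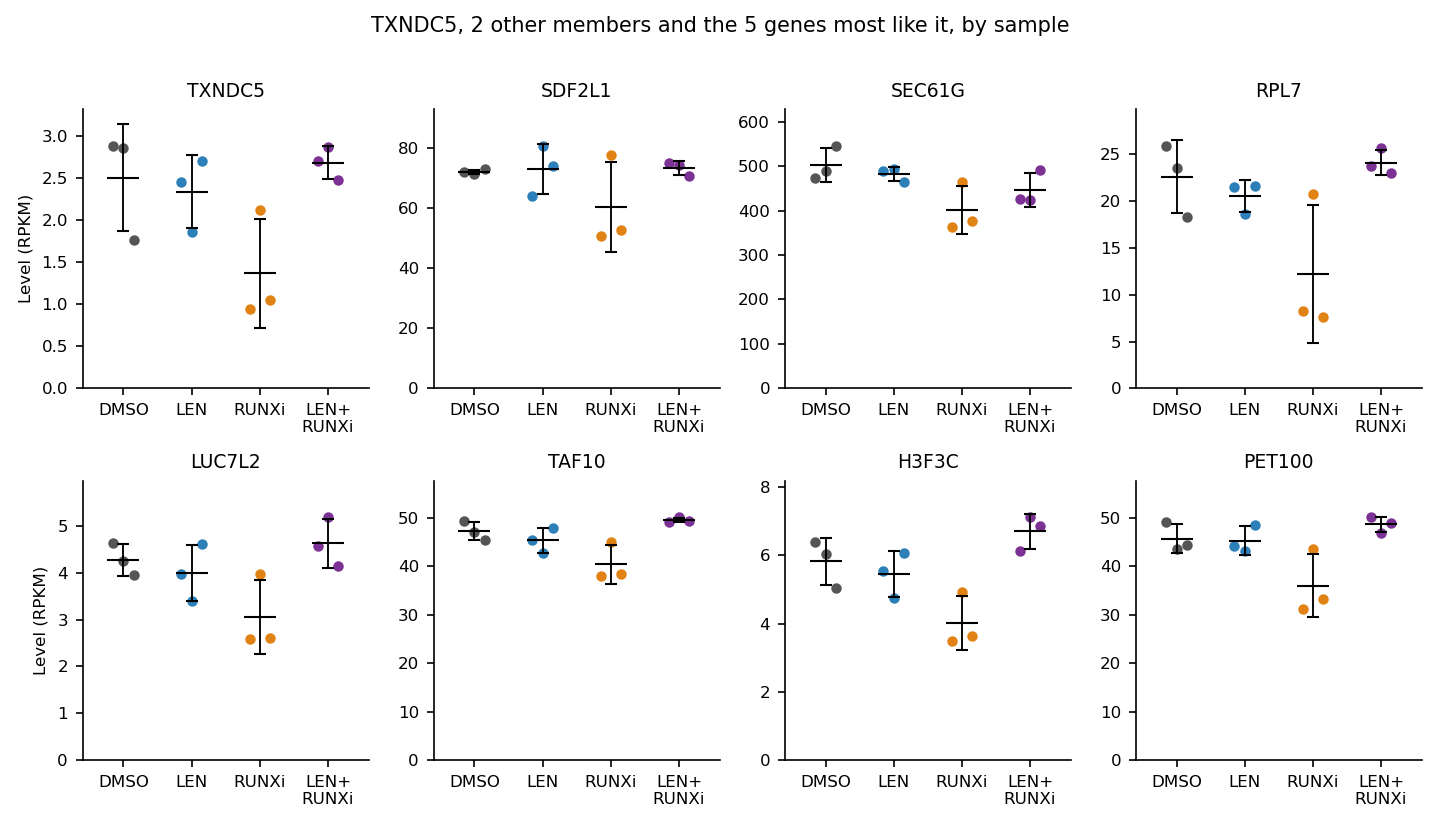
Levels in RPKM of TXNDC5, of the members SDF2L1 and SEC61G and of the 5 genes picked for their correlation with TXNDC5 in each sample, with the mean and SD of 3 samples in black. In each panel the second RUNXi sample lies above the other two RUNXi samples.

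Without RUNXi replicate 2, the RUNXi comparison had 2 members higher (HERPUD1 and SSR2) and 6 lower (PDIA4, SDF2L1, SEC61B, SEC61G, SSR4 and TXNDC5), beside 6.29% and 7.65% of all genes. The combination against RUNXi then had 7 members higher and 14 lower, beside 14.8% and 9.83% of all genes. The members that were higher were TXNDC5, SDF2L1, CRELD2, SEC61G, SEC61B, SSR4 and PDIA4. Replicate 2 was the highest RUNXi sample in each of these 7, among them the 6 that were then lower with RUNXi, and the lowest in SSR2. Leaving it out thus moves their RUNXi means in these directions by construction.

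GC content and gene length moved with several of these differences. Across the 10042 tested genes with a GC value (89.3%), the Spearman correlation of the log2 fold change with GC content was -0.36 for RUNXi against DMSO, 0.28 for LEN+RUNXi against DMSO and 0.53 for LEN+RUNXi against RUNXi. Across the 38 members it was -0.45, 0.32 and 0.54, as a description over genes, which are not independent replicates. In the same order, the correlation with gene length was 0.09, -0.12 and -0.19 across all genes tested. Across the members it was 0.35, -0.32 and -0.53. In LEN+RUNXi against RUNXi the median of all genes rose from -0.077 under 40% GC to 0.175 over 60% GC. The members that fell in this comparison had GC contents of 38.351% (SPCS3) to 47.418% (SSR2), and those with the highest values after TXNDC5 were SDF2L1 (64.495% GC) and CRELD2 (57.685% GC). With values corrected for GC content and gene length, 13 members fell in LEN+RUNXi against DMSO (background 6.9%) and 13 against RUNXi (background 6.21%). Those against RUNXi were in part other genes than in the main test. DERL1, EDEM1, EIF2AK3 and SPCS3 were lost, and HYOU1, SEC61A1 and SYVN1 were gained. HERPUD1 rose against DMSO in both RUNXi conditions after the correction. The part of GC content or gene length in each difference was not otherwise tested.

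**Figure D5:**
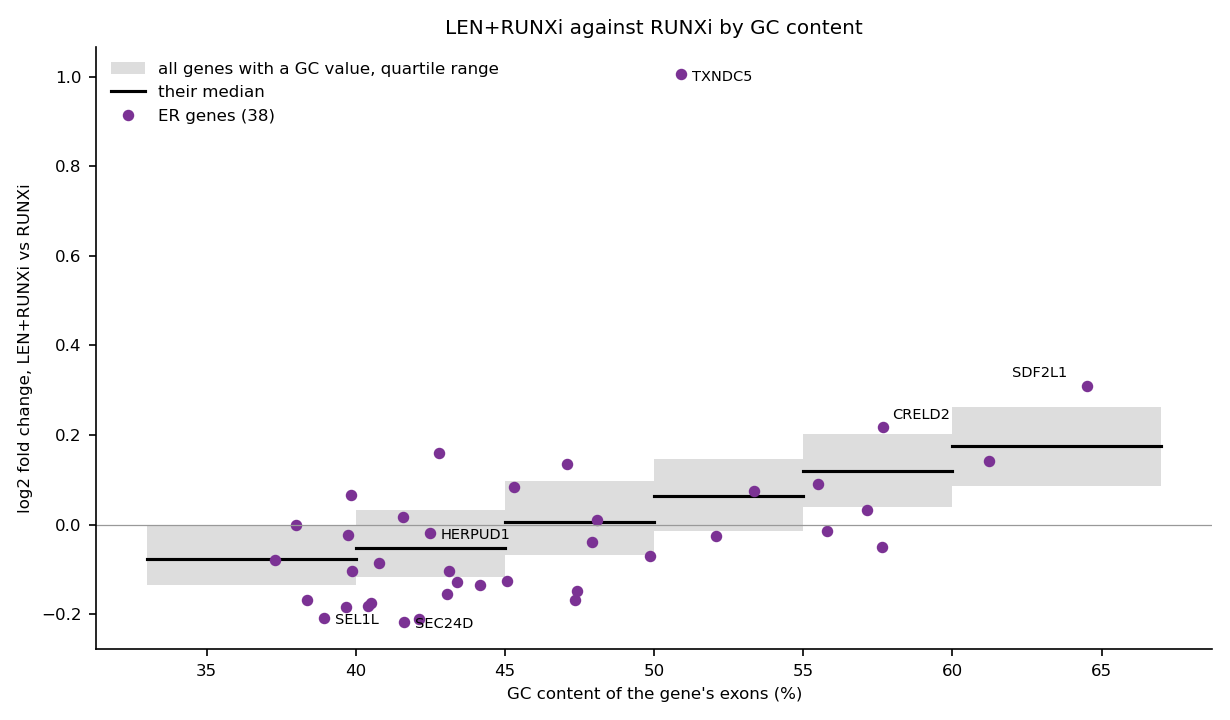
Log2 fold change of LEN+RUNXi against RUNXi by GC content of the exons (%), for the 38 ER genes (points) and for all genes in bins of GC content (median as a line, quartiles in grey). Both rise with GC content, and TXNDC5 at 1.01 lies far above its bin.

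The members that carry ERSE or ERSE-II in their promoters showed no common direction. Of the 9 tested (ERO1B was not), 5 were higher and 4 lower with RUNXi, with a median log2 fold change of 0.007 and a range from -0.28 (SDF2L1) to 0.20 (HERPUD1). With LEN+RUNXi against DMSO the range was from -0.18 (CANX) to 0.18 (HERPUD1), with a median of 0.003 beside -0.042 for the other 25 members with a promoter.

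A second list held 104 further ER genes, of which 99 were tested. In the comparison with LEN 0 of 99 rose or fell. With RUNXi 4 rose (XBP1, SEC61A2, DNAJC10 and TRAM1; 4.04%, background 2.09%) and 1 fell (PRKCSH; 1.01%, background 2.46%). With LEN+RUNXi against DMSO 2 rose (SEC61A2 and WFS1; 2.02%, background 5.64%) and 9 fell (9.09%; background 3%), among them FKBP11, KDELR2, LMAN1 and STT3A. Against LEN the combination had 1 higher (SEC61A2; 1.01%, background 2.48%) and 1 lower (UBE2J1; 1.01%, background 2.14%), shares under the background. Against RUNXi it had 8 higher (8.08%; background 9.13%) and 17 lower (17.2%; background 5.84%). Of all these, SEC61A2 in LEN+RUNXi against DMSO and FKBP2 and XBP1 against RUNXi also passed the threshold of 0.32. SEC61A2, a second pore subunit, was 2.09, 2.13 and 2.32 RPKM in DMSO, 2.10, 2.26 and 2.25 in LEN, 2.84, 2.68 and 2.53 in RUNXi, and 2.76, 2.58 and 2.96 in LEN+RUNXi. The 6 samples with RUNXi lay above the 6 without it. The log2 fold change was 0.29 with RUNXi (SE 0.07, adjusted p = 0.044), which passed in 4 of the 12 fits that left out a sample (adjusted p up to 0.18). With LEN+RUNXi it was 0.33 (adjusted p = 0.016), which passed in 9 of the 12 (adjusted p up to 0.065). Corrected for GC content and gene length, the value of SEC61A2 with RUNXi was 0.24 (adjusted p = 0.056). FKBP2, a prolyl isomerase of the ER, was 36.0, 42.5 and 37.6 RPKM in RUNXi and 49.7, 49.0 and 49.0 in LEN+RUNXi, a log2 fold change of 0.35 (SE 0.07, adjusted p = 0.011, up to 0.053 without RUNXi replicate 1). The corrected value of FKBP2 was 0.13 (adjusted p = 0.12).

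DERL3 (chr22:23834503-23839128, minus strand, GRCh38), a derlin that plasma cells are known to express, is listed at 0 in all 12 samples. It lies in a run of 10 neighbouring protein-coding genes, from CHCHD10 to GSTT2, that held at most 3 reads in every sample, 8 of them 0. The run includes MIF and SMARCB1, which most cells express. The next gene on the far side, CABIN1, had 5.27 RPKM. The table gives DERL3 a length of 7517 bases, 1.98 times its 3796 exon bases in GENCODE 44. So the 0 of DERL3 is shared by its neighbours, and the part of the counting in it was not tested.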

How the data were processed

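Poly(A) RNA of OPM-1 cells in 4 conditions with 3 samples each was sequenced. The authors aligned reads to GRCh38 with STAR; the submitters' processing notes also name FastQC, Cuffnorm and DESeq2, and the annotation is not given in the sources used here. The authors deposited RPKM values with gene lengths, which the header credits to featureCounts, from which the reads behind each value were computed back (whole within 0.01 for 100% of values). The reads carry no molecular identifiers, so reads may repeat a molecule. The design had assumed FPKM. A date number stands in place of the name of 28 genes.

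Of 38478 genes, 11241 reached the minimum mean of 0.5 RPKM. They were fitted in limma 3.58.1 (R 4.3.3) on log2(RPKM + 0.1), all 12 samples together, with a variance trend and p-values adjusted by Benjamini-Hochberg. Fold changes on this scale understate changes of low genes. The method was tested on simulated data.

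The members and lists were chosen with earlier results of these data known. By rule, values per sample are given for members past both thresholds, the 3 largest differences in each comparison with DMSO, the 3 highest and 3 lowest levels, HSPA5, XBP1, TXNDC5, other ER genes past both thresholds and the 5 genes most like TXNDC5. Values of members that passed by the adjusted p alone were added after they were seen. Promoters are from RefSeq (GRCh38.p14), and coordinates and GC content from GENCODE 44. Figures were drawn with matplotlib 3.10.9.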

Additional observations from a re-analysis of the deposited data

How the results depend on the processing

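Under 24 alternatives 0 of the 35 fold changes named reversed. Those of XBP1 with RUNXi and against RUNXi, of HERPUD1, CANX, EIF2AK3, SSR1 and SSR3 with LEN+RUNXi against DMSO, and of SSR1, SSR3 and SEC24D against RUNXi passed throughout, and in 149 cases another value lost the threshold. HERPUD1 with RUNXi lost it when the compared conditions alone were fitted (adjusted p = 0.061). The causes were not tested.

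The median log2 fold change of the members became -0.07 (against DMSO), -0.06 (against LEN) and -0.065 (against RUNXi) for LEN+RUNXi with median-ratio rescaling, and -0.067 against RUNXi and 0.019 for RUNXi against DMSO with quantile normalization. For RUNXi it was -0.027 with the GC and length correction, alone or with the replicate block, and -0.016 to 0.010 with a sample left out, and for LEN+RUNXi against LEN -0.041 to -0.004.

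Members lower with LEN+RUNXi against DMSO numbered 5 with no filter, 5 with the compared conditions only, 13 with the GC and length correction, 13 with the block added, and 4 to 11 with a sample left out. Against LEN they numbered 5 with median-ratio rescaling, 1 with the compared conditions only, 1 with no variance trend, 7 with the correction, 8 with the block added, and 0 to 4 with a sample left out. Against RUNXi they numbered 9 with no filter, 7 with the compared conditions only and 4 to 14 with a sample left out, and members higher 0 with no filter or with the compared conditions only and 0 to 7 with a sample left out. Members higher with the combination against LEN numbered 2 with the correction and block. Members lower with RUNXi numbered 0 with no filter, with the compared conditions only or with no variance trend, 5 with voom, 4 with the correction, 5 with the block added, and 0 to 6 with a sample left out, and members higher 0 with the compared conditions only and 1 to 2 with a sample left out. With LEN, 2 were lower with the correction, with or without the block. With a sample left out, the interaction called 0 to 3 members.

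With the fold threshold of 0.32, voom called 2 members lower with RUNXi and leaving out a sample 0 to 3, and against RUNXi the combination had 0 members higher with no filter or with the compared conditions only and 0 to 2 with a sample left out. With no fold threshold the counts were 1 higher and 1 lower with RUNXi, 1 and 8 with the combination against DMSO, 1 and 3 against LEN, and 14 lower against RUNXi. Of the other ER genes, 11 passed with LEN+RUNXi against DMSO and 5 with RUNXi with no fold threshold. With LEN+RUNXi 0 passed with a pseudocount of 1, median-ratio rescaling, quantile normalization or a 1.5-fold threshold, and 0 to 1 with a sample left out, and with RUNXi 2 passed with quantile normalization and 0 to 3 with a sample left out. The SD of TXNDC5 in RUNXi was 0.375 to 0.632 by pseudocount and 0.101 to 0.773 with a sample left out. Of all genes, 634 were higher and 337 lower with LEN+RUNXi against DMSO, 612 and 693 with the correction, 464 and 548 with median-ratio rescaling, and 441 and 465 with quantile normalization. In the same order, they were 1026 and 657, 555 and 624, 847 and 972, and 825 and 938 against RUNXi, and 279 and 240, 283 and 456, 200 and 375, and 217 and 331 against LEN. With RUNXi 235 were higher and 277 lower, and 457 and 534 with voom.

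The replicate number as a block changed 4 calls among members. SEL1L was lost and HSP90B1 gained against DMSO, HSP90B1 was gained against LEN, and against RUNXi CRELD2 was gained, which made 2 members higher. Of all genes, 316 were then higher and 350 lower with RUNXi. The labels give same-numbered samples only the number in common. Their deviations from the mean of their condition correlated with a mean r of 0.052 (-0.027 to 0.155, 18 pairs), beside -0.026 (-0.133 to 0.059, 36 pairs) for different numbers. These deviations sum to 0 over the 3 samples of a condition. The mean for different numbers thus follows from that for the same number and is no separate evidence. Of the 12 samples, 10 correlated best with a sample of their own number. The number thus went with some shared deviation, whose source was not tested. Count models on reads computed back had been planned and were not run, and voom on those reads was run instead. Voom on reads, the corrections and counts by the adjusted p alone were chosen after seeing the data. ERO1B, at 38 to 78 reads per sample, was under the minimum level and not tested.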
